A study of Homo sapiens with 8 samples.

Results

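The 10 genes described here are Kruppel-like factors (KLFs): KLF2, KLF3, KLF4, KLF5, KLF6, KLF7, KLF9, KLF10, KLF13 and KLF15. They were taken by name, and each symbol matched 1 row among the 19158 genes listed for every library. The cells were A549, an established epithelial line from a human lung adenocarcinoma, recorded as wild type (WT) and grown in DMEM with fetal bovine serum. In 4 wells the cells received 1 µM dexamethasone, a synthetic ligand of the glucocorticoid receptor, for 48 h, and 4 wells were left untreated (NT), with no vehicle named in the labels. Each well gave 1 RNA library, and the replicates are numbered 1, 3, 4 and 5 in both groups. All wells hold the same line, so the p-values measure the spread between wells and not between donors.

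Kruppel-like factors are transcription factors that bind GC-rich and CACCC-box DNA through a conserved set of C-terminal zinc fingers. Their N-terminal parts differ and sort the family into branches: KLF3, KLF8 and KLF12 recruit the corepressor CtBP; KLF1, KLF2, KLF4, KLF5, KLF6 and KLF7 act mainly as activators; and KLF9, KLF10, KLF11, KLF13, KLF14 and KLF16 carry a motif that binds the corepressor SIN3. KLF9 and KLF15 are established glucocorticoid-receptor targets in several tissues, and in airway epithelium KLF5 and KLF4 are known regulators of proliferation, differentiation and barrier genes.

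Promoter sequences were read from RefSeq on build GRCh38.p14, which held entries for 8 of the 10 genes. The 250 bases upstream of the annotated start are shown for KLF9, which rose most, for KLF6 and KLF13, which also rose, and for KLF2, which did not pass the test. Each is written 5′ to 3′ on the strand of the gene, and capitals mark a GC box (GGGCGG) or a CACCC box on either strand, the sequences that this family itself binds.
KLF9, chr9:70414658-70414907, minus strand: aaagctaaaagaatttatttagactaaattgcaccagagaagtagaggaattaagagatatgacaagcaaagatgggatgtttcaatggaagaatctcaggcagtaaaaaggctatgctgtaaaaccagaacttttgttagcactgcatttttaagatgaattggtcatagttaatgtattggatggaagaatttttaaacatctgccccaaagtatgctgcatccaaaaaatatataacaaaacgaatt
KLF6, chr10:3785210-3785459, minus strand: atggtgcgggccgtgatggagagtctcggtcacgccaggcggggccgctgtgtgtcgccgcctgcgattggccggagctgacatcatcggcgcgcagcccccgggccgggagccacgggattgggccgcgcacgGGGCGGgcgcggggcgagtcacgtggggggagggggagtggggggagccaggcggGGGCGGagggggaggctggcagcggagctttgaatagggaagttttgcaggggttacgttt
KLF13, chr15:31326585-31326834, plus strand: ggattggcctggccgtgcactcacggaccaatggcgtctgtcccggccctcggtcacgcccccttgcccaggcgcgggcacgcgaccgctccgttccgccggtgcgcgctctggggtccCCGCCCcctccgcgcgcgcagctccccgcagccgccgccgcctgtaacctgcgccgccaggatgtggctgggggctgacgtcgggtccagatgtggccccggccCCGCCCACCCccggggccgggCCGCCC
KLF2, chr19:16324576-16324825, plus strand: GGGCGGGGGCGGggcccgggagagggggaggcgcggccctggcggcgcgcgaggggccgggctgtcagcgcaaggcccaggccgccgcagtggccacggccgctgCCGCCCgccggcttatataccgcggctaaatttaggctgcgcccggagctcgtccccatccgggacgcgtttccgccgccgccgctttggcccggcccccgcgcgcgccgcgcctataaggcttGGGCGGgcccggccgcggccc

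The KLF9 window had a GC content of 32.4% and held neither a GC box nor a CACCC box, while the windows of KLF6, KLF13 and KLF2 had GC contents of 72.4%, 78.8% and 80.0%. A GC box occurred 2 times in the KLF6 window, 3 times in that of KLF13, where 1 overlapped the CACCC box, and 4 times in that of KLF2. Among 35116 RefSeq promoter windows of this length, 42.6% held a GC box, 54.7% held a CACCC box, and the median GC content was 58.0%. KLF5 and KLF7 have several annotated starts, so the 8 genes gave 12 windows. A low GC content was not particular to KLF9, since windows of KLF5 (40.8%) and KLF7 (41.6% and 43.2%) were also below the median. The KLF7 window at 41.6% likewise held neither box. The other windows of KLF5 and KLF7 had GC contents of 58.0% to 72.0%. The palindromic glucocorticoid response element searched as GNACANNNTGTNC on both strands was in none of the 12 and in 0.327% of all windows. One arm of that element, AGAACA, was in 1 window of KLF5 and 1 of KLF7, and in 12.4% of all windows. The E-box CACGTG was present 1 time each in the windows of KLF4, KLF6 and KLF15 and in 1 window of KLF7, against 6.34% of all windows. These are matches of letters in a short window and say nothing of binding.

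Values are FPKM, fragments of a gene per kilobase of its transcript, scaled to the size of the library. Depth, estimated from the steps between low values, was 24870000 to 28450000 fragments per library. The treatment labels were checked with the glucocorticoid-induced genes FKBP5, TSC22D3 and PER1, whose lowest value after dexamethasone lay above the highest untreated value (FKBP5 at 3.28 to 7.30 FPKM untreated and 87.3 to 166 FPKM treated). Of 5 epithelial markers, KRT8 was at 957 to 1984 FPKM untreated and 1624 to 2195 FPKM treated, and KRT18 at 805 to 1270 and 819 to 1034 FPKM. The groups did not overlap for KRT19, which was lower after dexamethasone (131 to 200 and 43.97 to 64.2 FPKM), and for CDH1, which was higher (4.90 to 8.52 and 16.7 to 19.7 FPKM). EPCAM was low in both groups, at 0.221 to 0.765 and 0.140 to 0.383 FPKM. Of 9 markers of leukocytes, endothelium and fibroblasts, PTPRC and CD3E were listed at 0 in every library. The 9 summed to 5.54 to 7.17 FPKM untreated and 2.12 to 2.73 FPKM treated, mostly CD68 with COL1A1; the part of either marker list in the results below was not tested. Replicate 5 of each group stood apart from the other libraries, as described with the spread of the KLF values. Changes also moved with the GC content of transcripts: the median log2 change was 0.33 in the fifth of genes with the lowest GC content and -0.27 in the fifth with the highest.

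Transcripts of KLF9, KLF6, KLF5, KLF13, KLF4 and KLF7 were higher after dexamethasone, in this order of size, and those of KLF2, KLF3 and KLF10 did not pass the test. Of the 9 members that passed the filter of at least 0.5 FPKM in at least 4 libraries, 6 rose and 0 fell, at a Benjamini-Hochberg adjusted p under 0.05 in a limma test of log2(FPKM + 1) over all genes. None of the 3 others was lower at an unadjusted p under 0.05. Among all 12161 genes tested 27.0% were called, 12.1% as higher and 14.8% as lower. The values of the groups did not overlap, after scaling between libraries, for the same 6 of 9 members, as for 31.6% of all genes tested. The median log2 change of the 9 members was 0.55, and that of all genes tested was 0.0026. KLF9 passed the filter through the dexamethasone libraries, so the count was also taken over genes at 0.5 FPKM or more in every library. There 5 of 8 members rose (62.5%), against 11.2% of 11052 such genes. The members were chosen with earlier results of these data known, so these shares describe the list and are not a test of it. In bulk RNA a change in the RNA per cell and a change in the number of cells of a kind cannot be told apart.

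**Figure D1:**
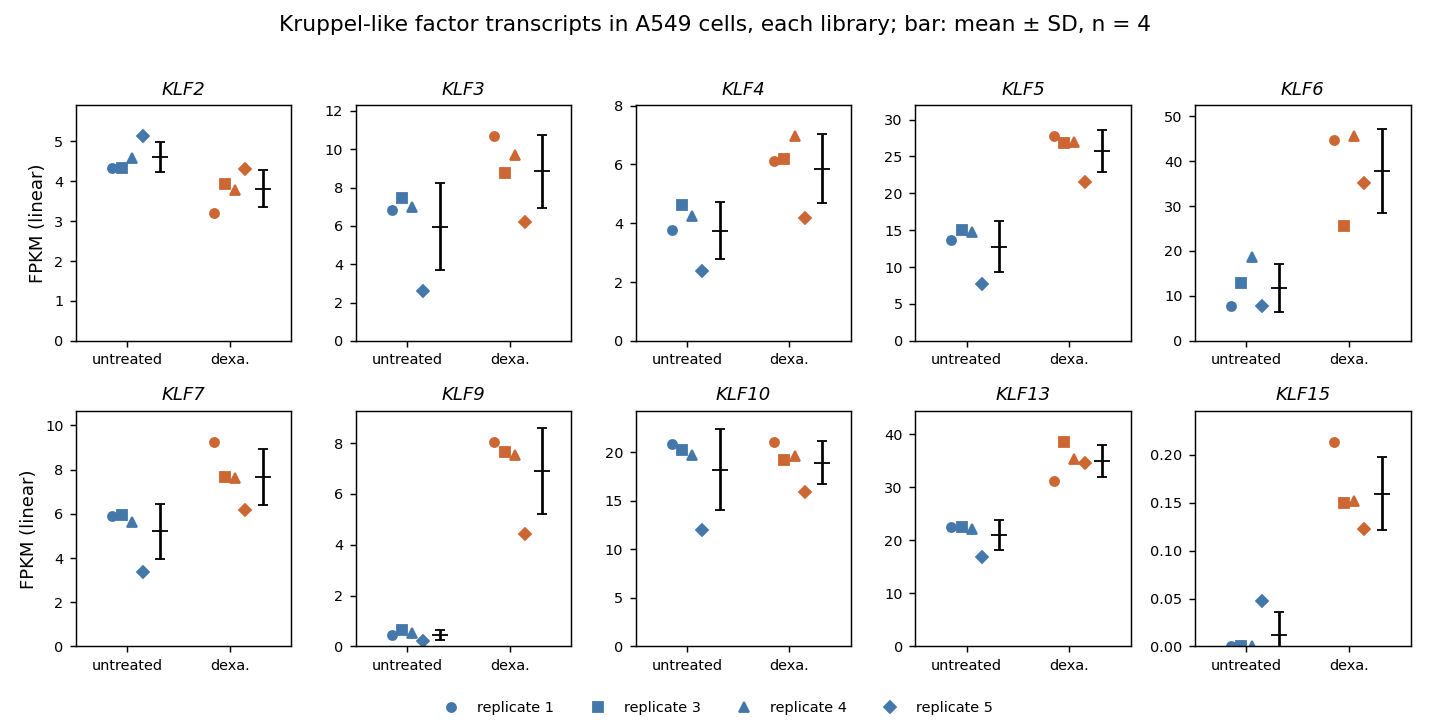
FPKM of each Kruppel-like factor in every library, on linear axes that differ between panels, with untreated wells in blue and dexamethasone wells in orange, marker shape giving the replicate number and black bars the mean ± SD (n = 4). KLF9 moves from 0.198 to 0.638 FPKM in untreated wells to 4.40 to 8.05 FPKM in treated wells, while KLF10 overlaps between groups, and replicate 5 (diamonds) is the lowest untreated well for most members.

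The SIN3-binding branch held both the largest rise, that of KLF9, and KLF10, which did not pass the test. KLF9 (ENSG00000119138, chromosome 9, 70384597 to 70414624, minus strand, protein coding) encodes a repressor that limits proliferation and is induced by glucocorticoid and thyroid hormones. The untreated wells, replicates 1, 3, 4 and 5, had KLF9 levels of 0.455, 0.638, 0.518 and 0.198 FPKM, and the dexamethasone wells of the same numbers had 8.05, 7.65, 7.53 and 4.40 FPKM. All treated wells lay far above all untreated wells, and replicate 5 was the lowest well of both groups. The mean rose from 0.452 ± 0.186 to 6.91 ± 1.68 FPKM (SD over 4 wells each), a ratio of 15.3. On the log2(FPKM + 1) scale, which understates changes of low genes, the change was 2.43 (SE 0.159, 95% interval 2.07 to 2.78, limma adjusted p = 7.93e-06). With a pseudocount of 0.1 in place of 1 it was 3.70. The call rested on roughly 26 to 84 fragments per untreated library and 652 to 1058 per treated library, computed from the length of its 1 annotated transcript. By the size of its rise KLF9 ranked 64th among the 12161 genes tested.

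KLF13 (ENSG00000169926, chromosome 15, 31326855 to 31435665, plus strand), a close relative of KLF9 known from T-cell chemokine expression and heart development, rose from a high base. Untreated replicates 1, 3, 4 and 5 had 22.5, 22.5, 22.1 and 16.8 FPKM, and the treated wells had 31.3, 38.6, 35.4 and 34.5 FPKM. The lowest treated well was thus above the highest untreated one, and the untreated group was tight apart from replicate 5. The log2 change was 0.70 (SE 0.117, limma adjusted p = 0.00179), from 21.0 ± 2.81 to 35.0 ± 3.02 FPKM (SD, n = 4 each).

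KLF10 (ENSG00000155090, chromosome 8, 102648779 to 102655902, minus strand), known as the TGF-beta-inducible early gene, was in the range of KLF13 in untreated cells but did not differ between groups beyond the spread of the wells. It was at 20.8, 20.2, 19.7 and 12.0 FPKM untreated and at 21.1, 19.2, 19.6 and 15.9 FPKM treated. The groups overlapped, and its log2 change was 0.07 with a 95% interval of -0.23 to 0.36 (limma adjusted p = 0.734). It was 0.12 without untreated replicate 1 and 0.11 without dexamethasone replicate 5, and the sign turned to -0.01 without untreated replicate 5 and to -0.03 with the GC trend removed.

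Of the activator branch, KLF6 and KLF5 rose most and held their call under every alternative tried. KLF6 (ENSG00000067082, chromosome 10, 3775996 to 3785281, minus strand) is a rapidly induced gene known as a growth suppressor in several epithelial tumours. Its untreated levels in replicates 1, 3, 4 and 5 were 7.73, 12.9, 18.7 and 7.69 FPKM, and its levels after dexamethasone were 44.6, 25.6, 45.6 and 35.1 FPKM. Its change had the largest SE of the 6 that rose, yet the highest untreated well stayed below the lowest treated one. The mean went from 11.8 ± 5.24 to 37.7 ± 9.36 FPKM (SD over 4 wells each), a ratio of 3.21 and a log2 change of 1.64 (SE 0.259, limma adjusted p = 0.00141).

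KLF5 (ENSG00000102554, chromosome 13, 73054976 to 73077542, plus strand), a factor of proliferating epithelial progenitors, had 13.6, 15.1, 14.7 and 7.66 FPKM in untreated and 27.7, 26.8, 27.0 and 21.5 FPKM in treated replicates 1, 3, 4 and 5. The groups were clearly apart, with replicate 5 the lowest of each. The log2 change was 0.98 (SE 0.148, limma adjusted p = 0.00101), a ratio of 2.02 between the means.

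KLF4 and KLF7 rose less, and their calls were less secure. KLF4 (ENSG00000136826, chromosome 9, 107484852 to 107490482, minus strand), an epithelial differentiation factor, was at 3.76, 4.61, 4.25 and 2.38 FPKM untreated and at 6.13, 6.18, 6.96 and 4.17 FPKM treated. The groups overlapped as deposited, since treated replicate 5 lay below untreated replicates 3 and 4, and were apart after scaling. The log2 change was 0.53 (SE 0.153, limma adjusted p = 0.0288). The call was lost without scaling (0.54, limma adjusted p = 0.0818), without untreated replicate 1 (0.53, limma adjusted p = 0.0688) and without dexamethasone replicate 1, 3 or 4 (0.53, 0.52 and 0.47, limma adjusted p up to 0.0790).

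KLF7 (ENSG00000118263, chromosome 2, 207074137 to 207167267, minus strand), best known from neuronal and adipocyte development, was at 5.91, 5.97, 5.61 and 3.35 FPKM untreated and 9.26, 7.69, 7.64 and 6.16 FPKM treated. Treated replicate 5 lay just above the highest untreated well. The log2 change was 0.49 (SE 0.141, limma adjusted p = 0.0286), and the call was lost without scaling (0.50, limma adjusted p = 0.0845) and without dexamethasone replicate 1, 3 or 4 (0.43, 0.50 and 0.51, limma adjusted p up to 0.0733). KLF7 overlaps KLF7-IT1 on its own strand and MYOSLID on the other in GENCODE v44, KLF3 and KLF4 each overlap a long non-coding RNA on the opposite strand, and KLF13 overlaps a processed pseudogene, and the authors' handling of shared reads and of strand is not given in the sources used here.

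KLF2 (ENSG00000127528, chromosome 19, 16324817 to 16327874, plus strand), the flow-responsive factor of endothelium that also keeps T cells quiescent, was the tested member with a negative estimate. It was at 4.32, 4.34, 4.59 and 5.13 FPKM untreated and at 3.21, 3.94, 3.79 and 4.32 FPKM treated. Treated replicate 5 fell just under the lowest untreated well as deposited, but the groups overlapped once scaled, where both wells numbered 5 were the highest of their group. The log2 change was -0.23 with a 95% interval of -0.58 to 0.12 (limma adjusted p = 0.297). It was -0.10 without untreated replicate 5, -0.14 without dexamethasone replicate 1 and 0.04 with the GC trend removed.

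KLF3, the CtBP-binding member (ENSG00000109787, chromosome 4, 38664196 to 38701042, plus strand) and a repressor of adipocyte and red-cell genes, did not pass the threshold. It was at 6.81, 7.44, 6.98 and 2.57 FPKM untreated and at 10.7, 8.78, 9.68 and 6.22 FPKM treated. In replicates 1, 3 and 4 every treated well was above every untreated well, and treated replicate 5 lay below 3 of the untreated wells. The log2 change was 0.55 (SE 0.228, 95% interval 0.04 to 1.06, limma adjusted p = 0.103). It passed without both libraries numbered 5 (0.45, limma adjusted p = 0.00509) and with the GC trend removed (0.41, limma adjusted p = 0.0439). Without untreated replicate 5 alone it was 0.34 (limma adjusted p = 0.0794).

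KLF15 (ENSG00000163884, chromosome 3, 126342635 to 126357442, minus strand), which drives amino acid breakdown and gluconeogenesis and works with the glucocorticoid receptor at shared targets, was close to the limit of detection. It was listed at 0 in untreated replicates 1, 3 and 4 and at 0.0479 FPKM in replicate 5. After dexamethasone it was at 0.213, 0.150, 0.152 and 0.123 FPKM in replicates 1, 3, 4 and 5. All treated wells were above all untreated wells, and the exact permutation test gave p = 0.0286 (two-sided), the smallest that 4 wells against 4 allow. The treated values amount to only about 8.9 to 13.7 fragments per library by the length of its longest transcript, so no fold is given. It failed the filter and has no adjusted p in the test above; with no filter on low values its log2 change was 0.19 (SE 0.0273, limma adjusted p = 0.00199 over 16561 genes).

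KLF9 moved from below its tested relatives into the range of KLF3, KLF7 and KLF4, passed KLF2, whose treated wells were all lower, and stayed below KLF6, KLF13, KLF5 and KLF10. In untreated cells the mean FPKM fell in the order KLF13, KLF10, KLF5, KLF6, KLF3, KLF7, KLF2, KLF4, KLF9 and KLF15. The ranges of neighbours overlapped in that order except between KLF6 and KLF3, between KLF4 and KLF9, and between KLF9 and KLF15. After dexamethasone the order was KLF6, KLF13, KLF5, KLF10, KLF3, KLF7, KLF9, KLF4, KLF2 and KLF15. There the ranges from KLF3 through KLF2 overlapped between neighbours, as did those of KLF6 and KLF13, while KLF13 and KLF5, KLF5 and KLF10, KLF10 and KLF3, and KLF2 and KLF15 were apart. The level of KLF9 ranked 12134th of 16026 genes above 0 in untreated cells and 6727th of 15973 after dexamethasone. The 10 genes together summed to 83.7 ± 17.9 FPKM untreated and 151 ± 14.9 FPKM treated (SD, n = 4 each). Of that sum KLF9 made up 0.521% ± 0.139 and 4.55% ± 0.859, KLF6 made up 13.8% ± 4.20 and 24.9% ± 4.84, and KLF10 made up 21.7% ± 1.76 and 12.6% ± 0.667 (SD, n = 4 each).

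The change of KLF9 was compared with that of each other tested member through their log2 difference within each library, with 8 exact permutation tests (two-sided). KLF9 was singled out for this with its values known, as the member with the largest rise. The p-values are not corrected for that choice, so they describe the separation of the wells and are no independent test. On the log2(FPKM + 1) scale the estimate for KLF9 exceeded those of KLF2, KLF3, KLF4, KLF5, KLF7, KLF10 and KLF13. The differences were 1.44 (KLF5) to 2.66 (KLF2), and in each case the groups did not overlap (exact permutation p = 0.0286, adjusted over 8 comparisons p = 0.0327). This p is the smallest the test allows here, so it does not grade these members. Against KLF6 the difference was 0.78, and the libraries overlapped (exact permutation p = 0.0571, adjusted p = 0.0571). A larger change of KLF9 than of KLF6 was therefore not shown on this scale, which understates the change of the low KLF9 more than that of KLF6. With a pseudocount of 0.1 the log2 changes were 3.70 for KLF9 and 1.72 for KLF6. The ratios of the means were 15.3 and 3.21. The difference between the 2 genes was not tested with that pseudocount.

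The 3 genes whose levels over the 8 libraries were most like those of KLF9 were SNAI2, SVEP1 and PRR15L, by the root mean square difference in scaled log2(FPKM + 1), which was 0.26, 0.33 and 0.34. SNAI2, a repressor of epithelial genes, was at 0.155 to 0.480 FPKM in untreated wells and 3.72 to 6.56 FPKM in treated wells, and like KLF9 it was lowest in replicate 5 of each group. SVEP1, an extracellular matrix protein, was at 0.262 to 0.439 and 3.73 to 5.92 FPKM, again lowest in both wells numbered 5. PRR15L was at 0.237 to 0.468 and 5.38 to 6.81 FPKM, and here dexamethasone replicate 5 was the highest treated well and untreated replicate 5 the second highest untreated one.

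Most members were lowest in the wells numbered 5, as were many other genes. Untreated replicate 5 gave the lowest FPKM of its group for 8 of the 9 tested members and the highest for KLF2. Dexamethasone replicate 5 gave the lowest for 6 of 9 and the highest for KLF2. After scaling, with factors of 0.831 and 0.931 for these libraries, they were lowest for 7 and 6 of 9. Among all 12161 genes tested, untreated replicate 5 was lowest for 57.4% as deposited and 42.5% after scaling, and dexamethasone replicate 5 for 46.6% and 36.8%. KLF2 also has the highest transcript GC content of the tested members, 62.4%, and those of the others were 43.5% (KLF5) to 57.0% (KLF13). With the trend of each library on GC content removed, the log2 changes were 2.36 for KLF9, 1.69 for KLF6, 0.92 for KLF13, 0.81 for KLF5, 0.73 for KLF4 and 0.46 for KLF7, and 7 members passed, KLF3 being the additional one. Without both libraries numbered 5 the same number, 7, passed. Mitochondrial genes made up 1.74% (untreated) and 2.55% (dexamethasone) of the summed FPKM in the libraries numbered 5, and 3.45% to 9.44% in the others. This share was higher in the treated library of each replicate number. Genes at 1 FPKM or more numbered 10555 and 11008 in the libraries numbered 5, and 11263 to 11378 in the others. What sets the libraries numbered 5 apart was not tested.

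**Figure D2:**
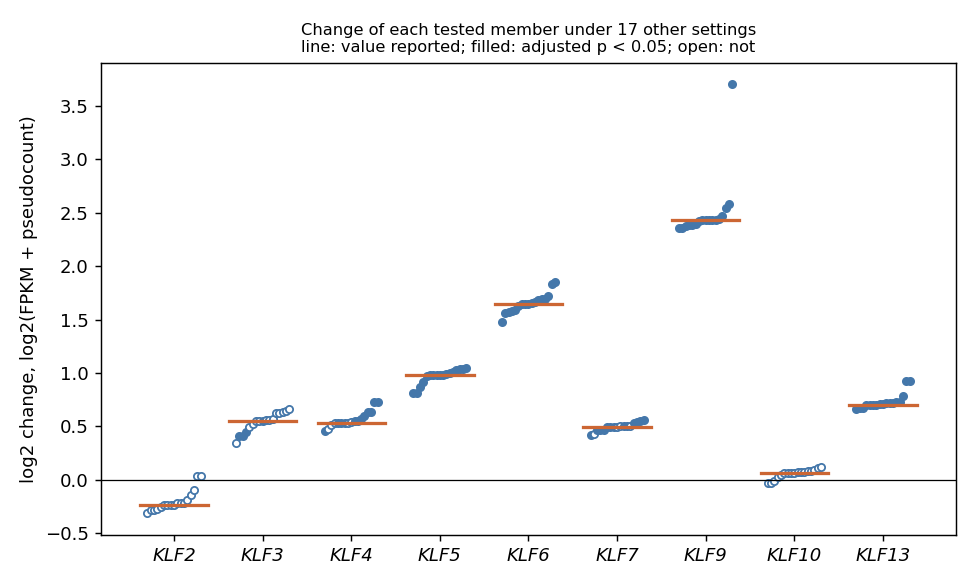
Log2 change of each tested Kruppel-like factor (orange line, the value reported) and under 17 other settings (blue points, filled where the limma adjusted p was under 0.05), on the log2(FPKM + pseudocount) scale. KLF5, KLF6, KLF9 and KLF13 stay filled throughout, KLF4 and KLF7 mix filled and open points, and the point of KLF9 at 3.70 is the setting with a pseudocount of 0.1.

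Of 17 further KLF and SP genes, 9 passed the filter, of which 0 rose and 3 fell, with a median log2 change of -0.34. Among all genes tested 12.1% rose and 14.8% fell. At an unadjusted p under 0.05, 1 of the 9 (KLF12) was higher. Besides the 3 called genes, KLF16 (-0.62, limma adjusted p = 0.0623) and SP2 (-0.34, limma adjusted p = 0.085) were lower at that level. SP9, a developmental factor of the SP branch, fell from 3.22 ± 0.287 to 0.771 ± 0.0995 FPKM (SD over 4 wells each), which is -1.26 in log2 (SE 0.0986, limma adjusted p = 1.75e-05). SP6, known from skin and tooth development, fell from 1.43 ± 0.0773 to 0.607 ± 0.0442 FPKM (SD over 4 wells each), which is -0.61 in log2 (limma adjusted p = 0.000691). KLF11, the TGF-beta-inducible relative of KLF10, was at 2.95, 3.27, 3.56 and 1.98 FPKM in untreated and 1.74, 2.09, 1.91 and 1.59 FPKM in treated replicates 1, 3, 4 and 5. These values overlapped through untreated replicate 5 and were apart after scaling. The log2 change of KLF11, -0.47 (limma adjusted p = 0.0148), missed the threshold without scaling (-0.46, limma adjusted p = 0.0509). KLF12, which like KLF3 binds CtBP, had a log2 change of 0.43 (limma adjusted p = 0.0563), and SP1, the broadly expressed founder of the SP branch, of -0.13 (limma adjusted p = 0.428). The count of called relatives was 5, 1 of them higher, without dexamethasone replicate 5, and 6, again 1 of them higher, without both libraries numbered 5. Without untreated replicate 1 it was 4, with 1 higher. SP6 was at -0.36 with the GC trend removed, and with a pseudocount of 0.1 SP6 was at -1.13 and SP9 at -1.94.

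**Figure D3:**
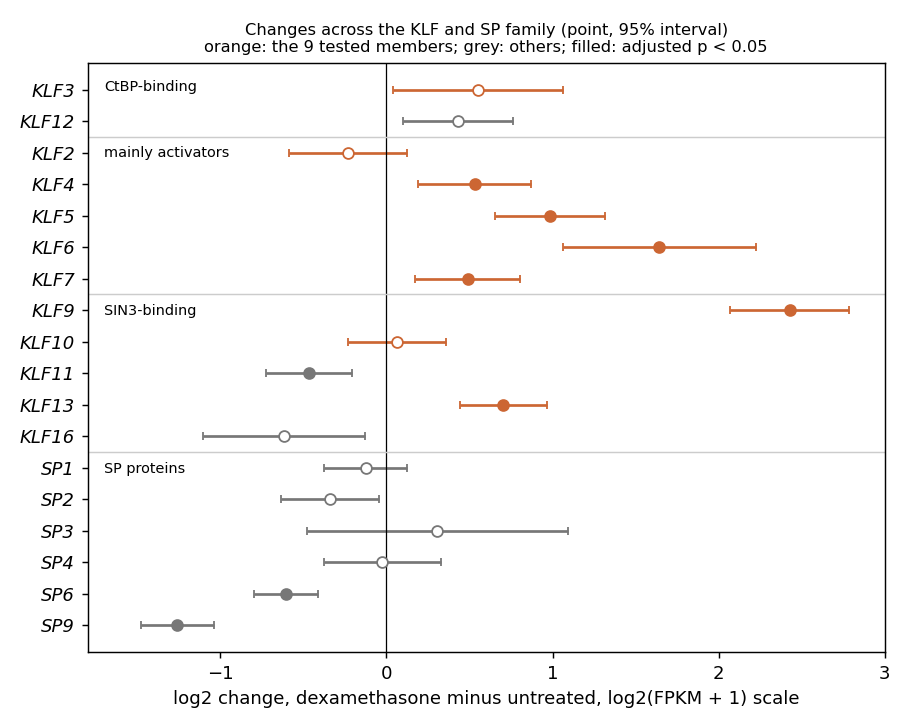
Log2 change (point) with its 95% interval for the 9 tested members (orange) and the 9 other KLF and SP genes that passed the filter (grey), by branch; filled points have a limma adjusted p under 0.05. KLF9, at 2.43, lies farthest to the right and SP9, at -1.26, farthest to the left, and within the SIN3-binding branch KLF9 and KLF13 rose while KLF11 fell.

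The cofactors through which these proteins act, and the genes for their turnover, were counted beside all genes tested, of which 12.1% rose and 14.8% fell. Of 15 corepressors and coactivators, all tested, 0 rose and 2 fell, with a median log2 change of -0.21, and 0 were higher at an unadjusted p under 0.05. FHL3, a LIM-domain partner of KLF3, fell from 5.35 ± 0.742 to 2.59 ± 0.567 FPKM (SD over 4 wells each), which is -0.84 in log2 (limma adjusted p = 0.00884). HDAC1, a histone deacetylase of the SIN3 complex, went from 44.5 ± 0.696 to 33.5 ± 2.39 FPKM, a log2 change of -0.42 (limma adjusted p = 0.0472); this call was lost when any 1 library other than dexamethasone replicate 5 was left out, at -0.32 to -0.44. The corepressors SIN3A and CTBP2 had log2 changes of -0.05 and -0.56 (limma adjusted p = 0.799 and 0.137), and CTBP2 passed without dexamethasone replicate 5 (-0.78, limma adjusted p = 0.0271) and without both libraries numbered 5 (-0.92, limma adjusted p = 0.00218). Without both, 6 of the 15 were called. Of 8 genes for KLF protein turnover, 1 rose and 0 fell, and none was lower at an unadjusted p under 0.05. It was WWP1, a ubiquitin ligase of KLF5 and KLF2, at 8.10, 10.05, 9.56 and 2.65 FPKM untreated and 17.02, 12.8, 15.9 and 10.4 FPKM treated in replicates 1, 3, 4 and 5. Its log2 change was 0.90 (limma adjusted p = 0.04), and it did not pass without untreated replicate 1 (0.96) or dexamethasone replicate 1, 3 or 4 (0.84, 0.95 and 0.86), nor with no filter, no scaling or upper-quartile scaling (limma adjusted p = 0.0648, 0.0901 and 0.0579). It was 0.60 with the GC trend removed, and passed. The other ligases ITCH and SMURF1 had log2 changes of 0.39 and -0.12 (limma adjusted p = 0.256 and 0.429). ITCH passed without both libraries numbered 5 (0.42, limma adjusted p = 0.0095), and was at 0.23 without untreated replicate 5, 0.59 without dexamethasone replicate 5 and 0.11 with the GC trend removed. SMURF1 was at -0.07 without dexamethasone replicate 1 and 0.01 with the GC trend removed.

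Signals known to act upstream of KLF genes were represented by the ERK5-MEF2 pathway, which induces KLF2 and KLF4, and by TGF-beta signalling, which induces KLF10 and KLF11. Of 12 tested genes 2 rose and 2 fell, beside 12.1% and 14.8% of all genes tested. The median log2 change was 0.19, and all of the 4 called genes belong to TGF-beta signalling. The signal transducer SMAD3 fell from 126 ± 18.9 to 42.7 ± 3.27 FPKM (SD over 4 wells each), which is -1.55 in log2 (limma adjusted p = 1.26e-05). The ligand TGFB1 fell from 74.0 ± 8.74 to 30.8 ± 3.72 FPKM, a log2 change of -1.25 (limma adjusted p = 0.00115). The receptor genes went the other way: TGFBR1 rose from 4.57 ± 2.91 to 15.3 ± 6.37 FPKM, with a log2 change of 1.61 (limma adjusted p = 0.00599), and TGFBR2, named after its value was seen, had a log2 change of 0.84 (limma adjusted p = 0.00734). None of the tested ERK5-MEF2 genes passed; MAPK7, which encodes ERK5, had a log2 change of -0.40 (limma adjusted p = 0.122).

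Genes tied to KLF15 and to other members in earlier work were listed from general knowledge, and no binding was measured here. Of 10 genes of KLF15-associated metabolism 5 passed the filter, of which 3 rose and 0 fell, beside 12.1% and 14.8% of all genes tested. Their median log2 change was 0.56, and none was lower at an unadjusted p under 0.05. ACSS2, which makes acetyl-CoA from acetate, rose from 12.9 ± 1.85 to 25.4 ± 2.77 FPKM (SD over 4 wells each), which is 0.92 in log2 (limma adjusted p = 0.00616). BCKDHB, a subunit of the branched-chain ketoacid dehydrogenase, rose from 3.04 ± 0.454 to 5.38 ± 0.719 FPKM, a log2 change of 0.65 (limma adjusted p = 0.00354). With the GC trend removed BCKDHB no longer passed (0.40, limma adjusted p = 0.0916). PRODH, the proline dehydrogenase gene, had a log2 change of 0.56 (limma adjusted p = 0.0439). PRODH no longer passed when any 1 library other than untreated replicate 5 was left out (0.40 to 0.62), with a pseudocount of 0.1 (0.89, limma adjusted p = 0.0577) or with no filter (limma adjusted p = 0.0629). TAT and AASS, also on this list, were below the filter.

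Of 11 other known KLF targets 9 were tested, 3 rose and 2 fell, beside 12.1% and 14.8% of all genes tested, with a median log2 change of 0.04. THBD, which encodes thrombomodulin and is activated by KLF2 and KLF4 in endothelium, was at 11.4, 11.4, 10.6 and 8.27 FPKM in untreated and 32.6, 33.2, 34.0 and 29.1 FPKM in treated replicates 1, 3, 4 and 5, a log2 change of 1.54 (SE 0.104, limma adjusted p = 8.25e-06). CDH1, the E-cadherin gene and also an epithelial marker above, rose from 6.80 ± 1.51 to 18.2 ± 1.45 FPKM (SD over 4 wells each), which is 1.31 in log2 (limma adjusted p = 8.87e-05). BIRC5, which encodes survivin, fell from 34.8 ± 4.37 to 9.99 ± 2.88 FPKM, a log2 change of -1.75 (limma adjusted p = 0.00035). LGALS3, the galectin-3 gene, and PDGFA, a growth factor gene, were the other called genes, with log2 changes of 0.91 and -0.43 (limma adjusted p = 0.00217 and 0.0349). CDKN1A, the p21 gene that KLF4 and KLF6 are known to activate, had a log2 change of 0.01 (limma adjusted p = 0.989). It was at 60.8 to 74.3 FPKM in untreated wells, at 30.7 FPKM in dexamethasone replicate 3 and at 78.9 to 99.8 FPKM in the other treated wells.

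**Figure D4:**
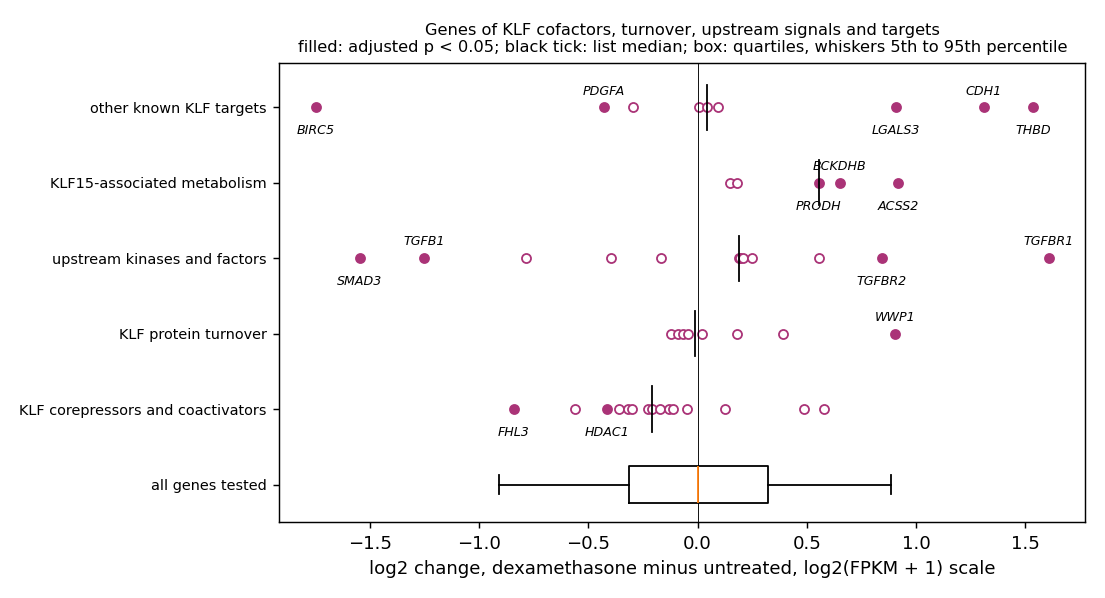
Log2 change of every tested gene in 5 lists related to Kruppel-like factors (points, filled and named where the limma adjusted p was under 0.05, with a black tick at the list median), beside all 12161 genes tested (box at the quartiles, whiskers at the 5th and 95th percentiles). The named TGF-beta genes lie on both sides of 0, from SMAD3 at -1.55 to TGFBR1 at 1.61, and the called KLF15-associated genes are all to the right.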

How the data were processed

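RNA from A549 wells was sequenced as paired reads, and the labels give no separate batch for the libraries numbered 5. The submitters' processing notes name FastQC 0.11.9, cutadapt 3.4, STAR 2.7.9a, featureCounts of Subread 2.0.3, DESeq2 1.32.0 and build GRCh38; the annotation release and the strand setting are not given in the sources used here. The deposited values are described as counts but are not whole numbers. From the values, the authors deposited FPKM, per gene and library, and whole reads could not be recovered. So limma 3.58.1 in R 4.3.3 (trend and robust options, two-sided) was run on log2(FPKM + 1) of all 8 libraries, with the group as the single term. Values were first divided by a factor per library from a trimmed mean of M values (trims of 0.3 and 0.05). Genes at 0.5 FPKM or more in at least 4 libraries were tested (3 where libraries were left out), and p-values were adjusted by Benjamini and Hochberg over all of them, with calls at 0.05. The procedure was tested on simulated data in which each gene varied independently. Those data held no shift shared by the genes of a library, so they cannot show how the calls fare under such shifts. The RefSeq promoter table had no entry for KLF3 or KLF10. Gene positions are those deposited with the values, and for most members they differ from the GENCODE v44 positions on GRCh38. Strands, overlaps and transcript lengths are those of GENCODE v44. The depth and the fragments behind a value were computed from these lengths. Such fragment numbers are approximate and their precision covers counting error only. The members and lists were chosen with earlier results of these data known. Named were all members, FKBP5, TSC22D3 and PER1, the 3 genes of each list with the smallest p, and the 3 tested genes most like KLF9; KLF15 was not tested and got no such list. KLF12, KLF16, SP1, SP2, SIN3A, TGFBR2, MAPK7, TAT, AASS, LGALS3, PDGFA and CDKN1A were added after their values were seen. Tried as alternatives were a pseudocount of 0.1, no filter, no scaling, upper-quartile scaling, plain empirical Bayes options, the replicate number as a block, removal of each library's GC trend (lowess, span 0.3), both together, each library left out, and both libraries numbered 5 left out.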

Additional observations from a re-analysis of the deposited data

Results flagged for a closer look

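In groups of 4 libraries, 9 of 68 groups (34 genes, each in both groups) had 1 library whose distance to the nearest other, divided by the range of the group, exceeded the 95% value of Dixon's criterion; chance gives about 3. Of these, 7 were among the 20 groups of the Kruppel-like factors, and all 9 set apart replicate 5, 6 times in the untreated and 3 times in the dexamethasone group. In untreated replicate 5, KLF3 was at 2.57 FPKM against 6.81 to 7.44 FPKM in the other untreated wells. KLF7 was at 3.35 FPKM there against 5.61 to 5.97 FPKM, KLF10 at 12.0 FPKM against 19.7 to 20.8 FPKM, and KLF13 at 16.8 FPKM against 22.1 to 22.5 FPKM. KLF15 was at 0.0479 FPKM in that library, about 3.0 fragments, and listed at 0 in the other untreated wells. With those wells all at 0, any value above 0 would have been flagged, so this flag carries no weight in the counts above. TGFB1 was higher there, at 87.0 FPKM against 68.0 to 70.5 FPKM. In dexamethasone replicate 5, KLF5 was at 21.5 FPKM against 26.8 to 27.7 FPKM and KLF9 at 4.40 FPKM against 7.53 to 8.05 FPKM in the other treated wells. CTBP2 was higher in that library, at 31.5 FPKM against 18.0 to 19.3 FPKM. The flags are not independent, since they fall in the same libraries, and what sets these libraries apart was not tested.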

How the results depend on the processing

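KLF5, KLF6, KLF9 and KLF13 rose under all 17 alternatives; over the 9 tested members 135 values kept direction and call, 9 lost and 4 gained a call, and 5 changed sign. The median member change of 0.55 ranged over 0.46 to 0.66 with 1 library left out. KLF2 was 0.0387 with the GC trend removed, with or without the block; KLF10 was -0.0269 in both and -0.0105 (without untreated replicate 5) to 0.1243 with 1 library left out; SMURF1 was 0.0138 in both. Member calls (6) were 4 to 6 with 1 library left out, 4 without scaling, and 7 with the replicate block, where KLF3 (0.55, limma adjusted p = 0.00891), ITCH (0.39, limma adjusted p = 0.0136) and 1 higher KLF or SP gene were gained. Genes called (3280) were 5769 with the block, 5334 with block and GC removal, 5513 without both libraries numbered 5 and 2285 to 3836 with 1 library left out; of the 3280, 3279, 2933 and 3241 were also called in the first 3. In the same order, other KLF and SP genes (3) gave 6, 6, 6 and 3 to 5, and 5 with GC removal; cofactors (2) gave 5, 5, 6 and 1 to 3, and 4 with GC removal; turnover genes (1) gave 2, 2, 2 and 0 to 1, and 0 with no filter, no scaling or upper-quartile scaling; upstream genes (4) gave 7 with the block and 4 to 5 with 1 library left out. KLF15-associated genes (3) and other targets (5) gave 2 to 3 and 4 to 5 with 1 library left out. Whether the numbers pair the wells was not settled, and the main test treated the wells as unpaired. Same-numbered deviations correlated at 0.29, 0.07, 0.31 and 0.71 for replicates 1, 3, 4 and 5. Dexamethasone replicates 3, 4 and 5 correlated best with the untreated well of the same number. Untreated replicates 3 and 4 correlated best with dexamethasone replicate 1 (0.43 and 0.42). The cause of each change was not tested. FPKM without counts limit the precision for KLF15.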
